A study of Mus musculus with 12 samples.

Results

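The blood vessels of interscapular brown adipose tissue (BAT) were examined through 35 genes out of the 25124 genes in the deposited expression table, whose unit is TPM, the abundance of a transcript in a library after division by its length. Of these, 29 are genes of the endothelial cell, the cell that lines every vessel, and 6 encode secreted ligands that act on it. Members were matched by gene symbol, and all 35 were present in the table. The libraries were made from whole interscapular BAT of 10-week-old male mice on a C57B/6J background, either wild type (WT) or carrying a Txnip deficiency (Txnip-/-), which the study's methods do not restrict to a cell type. The mice had spent 1 week at 23 °C, called room temperature (RT), or at 30 °C, the thermoneutral temperature (TN) at which a mouse needs no extra heat production. WT and Txnip-/- at each temperature made 4 groups of 3 libraries, described as triplicates; no label says that the 3 came from separate animals, so p-values measure the spread between these libraries.

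Endothelial cells read vascular endothelial growth factors (VEGF) through the receptors Kdr and Flt1 and angiopoietins through Tek, hold together through VE-cadherin and claudin 5, and take their identity largely from ETS-family and SoxF transcription factors. Dll4 on a sprouting tip cell signals through Notch1 on its neighbours and restrains further sprouting. Brown fat is a densely vascularised tissue, and its adipocytes are a known source of VEGF-A. Fold changes below are ratios of mean TPM, and log2 differences are on the log2(TPM + 1) scale, where the added 1 pulls the values of low genes towards 0. A gene was called when its log2 difference was beyond 0.322 in either direction and its adjusted p was under 0.05 by limma, over all genes with a mean of at least 1 TPM.

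Txnip itself, the targeted gene, was at 564 to 694 TPM in RT WT and 1072 to 1238 in TN WT, against 24.8 to 35.4 in RT Txnip-/- and 10.5 to 14.4 in TN Txnip-/-. Sequencing depth was 29.9 to 47.4 M reads, Pearson's r between libraries of a group was at least 0.985, and the first principal component, 61.8% of the variance, separated RT from TN. Some libraries sat to one side of their group: RT Txnip-/- replicate 2 was the lowest of its group for 26 of the 35 members, and TN WT replicate 2 the highest of its group for 21. The markers that define an endothelial cell (Pecam1, Cdh5, Kdr, Tie1, Erg and Egfl7) were all at 7.33 TPM or more in every library. In whole tissue, more endothelial cells and more RNA of a gene per endothelial cell cannot be told apart. At TN the markers of other cells moved too. The summed TPM of 8 macrophage markers was 61.0 to 69.9 in WT and 102 to 171 in Txnip-/- at RT, and 133 to 236 and 382 to 536 at TN. The sum of 6 fibroblast markers was 138 to 175, 165 to 186, 228 to 291 and 413 to 421 in the same order, and that of 7 brown adipocyte markers was 11359 to 11841, 9588 to 11289, 7881 to 8772 and 6815 to 7291. This adipocyte sum does not stand for each of its genes. At TN against RT, 3 of the 7 had estimates above 0 in each genotype. Called lower were 2 in WT and 4 in Txnip-/-, beside 6.39% and 8.27% of all genes. No macrophage, fibroblast or brown adipocyte marker was at 0 in all 12 libraries. The part of these cells in the values below was not tested.

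Promoter sequence is shown for 6 members because Erg and Fli1, both of them ETS-family factors, were among the members that rose at TN, and GGAA is the core that this family binds. The sequences are from RefSeq on GRCm38.p6 (mm10), 5′ to 3′ on the gene's own strand, and end at the base before the deposited transcript's start. Each has 150 bases, with GGAA and its reverse complement TTCC in capitals; these 2 words share no bases when they match. Kdr (chr5:75978456-75978605, minus strand), Tie1 (chr4:118489850-118489999, minus), Tek (chr4:94739139-94739288, plus) and Dll4 (chr2:119325634-119325783, plus) are endothelial, and Vegfa (chr17:46032378-46032527, minus) and Pgf (chr12:85175983-85176132, minus) are ligands.
Kdr: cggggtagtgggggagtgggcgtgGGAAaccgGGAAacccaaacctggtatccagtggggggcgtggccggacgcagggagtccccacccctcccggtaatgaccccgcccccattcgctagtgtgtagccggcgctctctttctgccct
Tie1: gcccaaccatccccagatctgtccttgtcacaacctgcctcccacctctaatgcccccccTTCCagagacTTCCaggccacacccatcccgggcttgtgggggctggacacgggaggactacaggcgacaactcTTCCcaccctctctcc
Tek: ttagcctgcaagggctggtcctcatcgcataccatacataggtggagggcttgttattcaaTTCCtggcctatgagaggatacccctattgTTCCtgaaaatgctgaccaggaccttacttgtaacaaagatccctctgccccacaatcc
Dll4: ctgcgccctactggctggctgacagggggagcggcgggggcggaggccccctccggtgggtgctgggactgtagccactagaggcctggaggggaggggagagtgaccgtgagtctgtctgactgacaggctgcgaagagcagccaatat
Vegfa: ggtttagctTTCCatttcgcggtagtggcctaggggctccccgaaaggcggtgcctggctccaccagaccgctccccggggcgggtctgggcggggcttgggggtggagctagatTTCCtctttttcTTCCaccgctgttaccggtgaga
Pgf: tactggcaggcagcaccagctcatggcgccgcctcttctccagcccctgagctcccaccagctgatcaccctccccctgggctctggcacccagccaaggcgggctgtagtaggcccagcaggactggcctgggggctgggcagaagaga
Counted over the whole 250 bases before the start, on both strands, the core was present 7 times before Tie1, a number that 3.82% of 32851 promoters reach. It was present 6 times before Vegfa (8.69% of promoters have as many or more), 4 times before Kdr, Flt1, Emcn and Notch1 (33.4%), and 2 times before Tek, Dll4, Flt4 and Erg (76.8%). No match was found before Pgf or Cldn5. Since 93.4% of all promoters hold at least 1 match, its presence does not set these genes apart, and a match is a description of the letters and not a binding site. A promoter entry that begins at the deposited start was matched for 18 of the 35 members.

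Across the 4 groups the members spanned a wide range of levels, which TPM allows to be compared between genes because it is divided by transcript length. In RT WT, 6 members averaged over 50 TPM and 7 under 5 TPM. Vegfa and Vegfb were the most abundant, followed by the VE-cadherin gene Cdh5 (79.9 ± 3.85, SD, n = 3), Egfl7 (65.5 ± 5.78), the adhesion molecule gene Pecam1 (61.5 ± 3.93) and Kdr (53.9 ± 1.86). The lowest was Prox1, the transcription factor that specifies lymphatic endothelium, at 0.074 to 0.199 TPM over all 12 libraries. Prox1 stayed under the 1 TPM filter in every comparison, and Pgf and Angpt2 did so in the genotype comparison at RT. This left 32 members tested there and 34 in each other comparison.

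**Figure D1:**
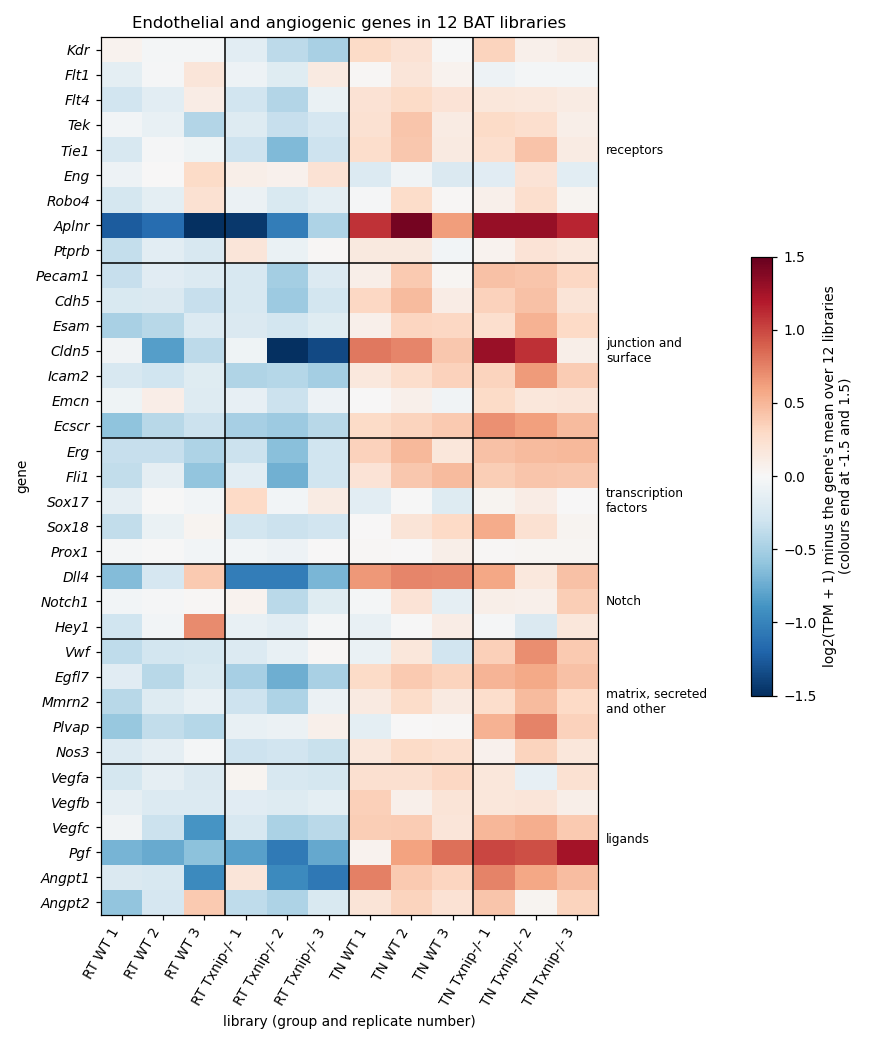
Level of each of the 35 genes (rows, by role) in each of the 12 libraries (columns, by group and replicate number), as log2(TPM + 1) minus the gene's own mean over the 12 libraries, so that red is above and blue below that mean. Most rows turn from blue in the 6 RT libraries to red in the 6 TN libraries, Aplnr most strongly, while Eng, Flt1, Sox17 and Hey1 do not.

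The comparison of TN with RT asked how the vascular genes change as the demand for heat falls. Of the 28 endothelial genes tested, 18 were called higher at TN in WT and 22 in Txnip-/-, and of the 6 ligands 5 and 4, beside 31.4% and 30.9% of all genes tested. The ligand counts include Pgf in both genotypes and Angpt2 in Txnip-/-, which averaged under 1 TPM at RT and passed the filter only through the TN groups. Their calls follow in part from the filter, so the ligand counts are no evidence about the ligands as a group. With equal medians in all libraries 8 and 17 of the endothelial genes and 3 and 3 of the ligands were called higher. Eng and Sox17 had estimates below 0 in both genotypes, Hey1 in WT and Flt1 in Txnip-/-, and none of these passed the test. In WT, 23 of the 34 members tested were called higher and 0 lower, beside 31.4% of all 12486 genes tested called higher and 6.39% lower. In Txnip-/-, 26 were called higher and 0 lower, beside 30.9% and 8.27% of all genes. Counts, shared calls and medians over all members, here and below, include Pgf and Angpt2 and carry the same limit. The counts over the 28 endothelial genes do not include them. Without TN WT replicate 2 the WT count was 18, and without RT Txnip-/- replicate 2 the Txnip-/- count was 23. The median log2 difference over the members was 0.41 in WT and 0.58 in Txnip-/-. All genes tested shifted upwards as well, by a median of 0.18 in WT and 0.15 in Txnip-/-, so the members lay above that shift by a median of 0.23 and 0.43, and 26 of 34 in WT and 29 of 34 in Txnip-/- were above it. Setting the median of every library equal moved the higher share of all called genes from 83.1% to 51.1% in WT and from 78.9% to 48.5% in Txnip-/-. Under it, 11 members were called higher in WT (beside 15.4% of all genes) and 20 in Txnip-/- (18.4%). Eng, 1 of the 34, was called lower in each, beside 14.7% and 19.5% of all genes. The other scaling tried, by the upper quartile, gave higher shares of 77.0% and 69.2%, with 19 members called higher in WT (beside 26.6%) and 24 in Txnip-/- (25.7%). The same 20 members were called higher in both genotypes, which is 87.0% of the WT calls and 76.9% of the Txnip-/- calls. Ptprb, Vegfa and Vegfb were called in WT alone and Kdr, Emcn, Sox18, Notch1, Vwf and Angpt2 in Txnip-/- alone, but for none of the 34 did the difference between the genotypes pass the test of interaction by limma (adjusted p from 0.168 for Egfl7 upwards). Among all genes 0.00801% passed that test, which is Txnip alone, and 6 of 34 members, which is 17.6%, had an unadjusted p under 0.05 in it, beside 12.6% of all genes.

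**Figure D2:**
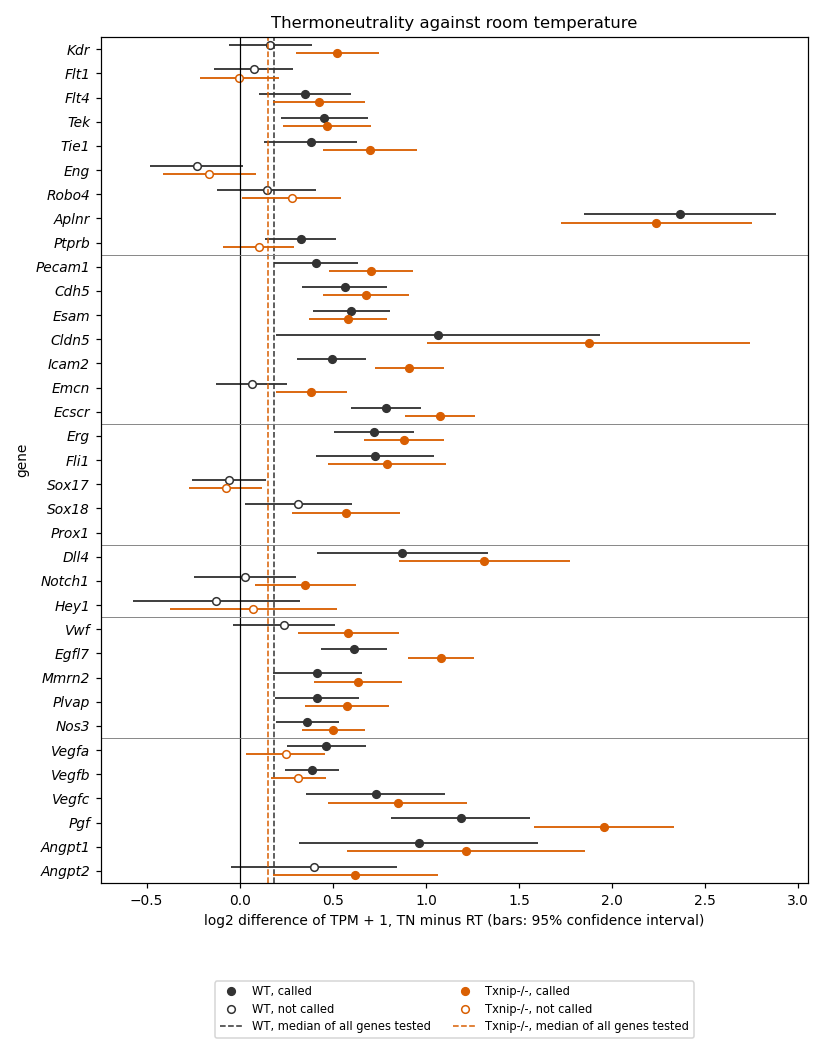
Difference between TN and RT for each gene in WT (black) and Txnip-/- (orange), on the log2(TPM + 1) scale with 95% confidence intervals; filled points were called and dashed lines are the medians of all genes tested. Aplnr stands furthest to the right in both genotypes (2.37 and 2.24), and Eng, Flt1, Sox17 and Hey1 lie left of the dashed line of each genotype. Kdr, Robo4, Emcn and Notch1 also lie left of it in WT, and Ptprb in Txnip-/-.

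Of the 9 receptor genes tested, 5 were called higher at TN in WT and 5 in Txnip-/-, beside 31.4% and 30.9% of all genes. With equal library medians 1 (Aplnr) and 3 (Aplnr, Kdr and Tie1) were called, beside 15.4% and 18.4%. The apelin receptor gene Aplnr, whose ligand acts on growing vessels, had the largest log2 difference of all members in both genotypes. It was at 5.91, 6.45 and 4.60 TPM in RT WT, 5.01, 7.00 and 10.9 in RT Txnip-/-, 33.9, 43.4 and 24.5 in TN WT and 39.8, 39.8 and 35.4 in TN Txnip-/-. The groups at TN and RT did not overlap. Mean Aplnr was 6.0-fold higher in WT (log2 difference 2.37 ± 0.24, SE; adjusted p = 6.18e-05) and 5.0-fold higher in Txnip-/- (2.24 ± 0.24; adjusted p = 3.07e-05). Per unit of Cdh5, a pan-endothelial gene, Aplnr was 0.0705 ± 0.00878 in RT WT and 0.281 ± 0.0439 in TN WT (SD, n = 3), and 0.102 ± 0.0383 and 0.317 ± 0.0116 in Txnip-/-, so its rise exceeded that of Cdh5 in both. Apln, the gene of its ligand, was looked up after the Aplnr values were seen, and had log2 differences of -0.00 in WT (adjusted p = 0.990) and 0.28 in Txnip-/- (adjusted p = 0.410).

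Tie1 and Tek, the orphan and the angiopoietin-binding receptor of the TIE family, rose together. Tie1 was at 39.6, 46.2 and 44.7 TPM in RT WT, 37.6, 29.2 and 37.6 in RT Txnip-/-, 56.7, 62.7 and 51.7 in TN WT and 56.3, 63.6 and 51.1 in TN Txnip-/-. Every TN library was above every RT library. Mean Tie1 was 1.31-fold higher in WT (adjusted p = 0.0165) and 1.64-fold higher in Txnip-/- (adjusted p = 0.000447), and Tek 1.38-fold (adjusted p = 0.00483) and 1.41-fold (adjusted p = 0.00362). The ratio of Tek to Tie1 stayed between 0.384 and 0.630 over all 12 libraries. With equal library medians the calls of Tek in both genotypes and of Tie1 in WT were lost, and the Tie1 call in WT was also lost without RT WT replicate 1 (adjusted p = 0.0598) or TN WT replicate 2 (adjusted p = 0.0700). Ptprb, the phosphatase that dampens Tek signalling, was higher in WT (1.27-fold; adjusted p = 0.00942), a value at the threshold that fell below it under both other scalings and without RT WT replicate 1 (log2 difference 0.27) or TN WT replicate 1 or 2 (0.30 each). In Txnip-/- it was at a log2 difference of 0.10 (adjusted p = 0.352), a value that became -0.09 with equal library medians.

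The VEGF receptors did not follow one pattern. Kdr (VEGFR2), the main signalling receptor for VEGF-A, was at 56.1, 52.9 and 52.8 TPM in RT WT and 65.9, 63.0 and 53.5 in TN WT, groups that overlap. In Txnip-/- it was at 48.4, 40.8 and 38.3 at RT and 68.5, 56.8 and 59.0 at TN, a 1.45-fold rise (log2 difference 0.52 ± 0.10; adjusted p = 0.00137), against a log2 difference of 0.17 ± 0.10 in WT (adjusted p = 0.197), which turned to -0.02 with equal library medians. Flt1 (VEGFR1), a decoy for VEGF-A, ranged from 23.8 to 31.1 TPM over all 12 libraries, with a log2 difference of 0.07 in WT (95% confidence interval -0.14 to 0.29) and -0.00 in Txnip-/- (-0.22 to 0.21). With equal library medians the WT value was -0.11. Flt4 (VEGFR3), the receptor for VEGF-C, was 1.36-fold higher in WT (adjusted p = 0.0224) and 1.48-fold in Txnip-/- (adjusted p = 0.00845), at 2.02 to 3.99 TPM, and neither call held with equal library medians. The WT call of Flt4 was also lost with upper-quartile scaling and without RT WT replicate 1 (adjusted p = 0.0851), RT WT replicate 2 (0.0625) or TN WT replicate 2 (0.0692).

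Endoglin and Robo4 were not called in either genotype. Eng, a co-receptor of the TGF-beta family, was at 42.8, 45.2 and 55.5 TPM in RT WT, 48.0, 47.5 and 52.9 in RT Txnip-/-, 39.0, 43.4 and 38.9 in TN WT and 40.1, 52.5 and 40.4 in TN Txnip-/-. The groups overlapped. Its log2 difference was -0.23 in WT (adjusted p = 0.112) and -0.16 in Txnip-/- (adjusted p = 0.251), and with equal library medians it was -0.41 (adjusted p = 0.0165) and -0.35 (adjusted p = 0.0283), both called lower. Robo4, a stabiliser of the vessel wall, had log2 differences of 0.15 in WT, which was -0.04 with equal library medians, and 0.28 in Txnip-/-, with adjusted p of 0.338 and 0.0746.

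Of the 7 genes of junctions and the cell surface, 6 were called higher at TN in WT and 7 in Txnip-/-, beside 31.4% and 30.9% of all genes, or 3 and 6 beside 15.4% and 18.4% with equal library medians. Cdh5 was at 81.8, 82.4 and 75.5 TPM in RT WT, 81.2, 66.0 and 79.3 in RT Txnip-/-, 119, 134 and 104 in TN WT and 123, 131 and 109.8 in TN Txnip-/-. Its TN and RT values were apart in both genotypes, and the mean was 1.49-fold higher in WT (adjusted p = 0.00133) and 1.61-fold higher in Txnip-/- (adjusted p = 0.000316). Pecam1, Esam and Icam2, adhesion molecules of endothelial contacts and of leukocyte passage, rose 1.34-, 1.53- and 1.44-fold in WT and 1.63-, 1.51- and 1.97-fold in Txnip-/-. With equal library medians Pecam1 and Icam2 were not called in WT, and Pecam1 was not without TN WT replicate 2 (log2 difference 0.30). Ecscr, a surface protein of migrating endothelial cells, rose 1.81-fold in WT (adjusted p = 9.58e-05) and 2.25-fold in Txnip-/- (adjusted p = 9.09e-06), from 7.27 to 9.11 TPM over the RT libraries to 14.4 to 19.3 at TN. Emcn, a sialomucin of capillaries and veins, was called in Txnip-/- (1.32-fold; adjusted p = 0.00345; lost under both other scalings and without RT Txnip-/- replicate 2, where the log2 difference was 0.31), while in WT its log2 difference was 0.06 (adjusted p = 0.563), or -0.12 with equal library medians.

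Cldn5, the claudin of tight endothelial junctions, was uneven between libraries of a group. It was at 58.3, 33.7 and 46.1 TPM in RT WT, 58.0, 17.8 and 23.0 in RT Txnip-/-, 105, 101 and 80.7 in TN WT and 151, 131 and 64.6 in TN Txnip-/-. The values of RT Txnip-/- alone spanned 17.8 to 58.0 TPM, yet TN and RT did not overlap in either genotype. The rise was 2.08-fold in WT (log2 difference 1.07 ± 0.40; adjusted p = 0.0423) and 3.50-fold in Txnip-/- (1.87 ± 0.40; adjusted p = 0.00232). The WT call was lost without the filter on low genes, under both other scalings and without any 1 of the 6 WT libraries except RT WT replicate 1 (adjusted p up to 0.136), and, through the pooled spread, without TN Txnip-/- replicate 2.

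Among the transcription factors, Erg and Fli1, ETS-family factors that maintain endothelial identity, rose in both genotypes. Erg was at 9.10, 9.07 and 8.31 TPM in RT WT, 9.24, 7.33 and 9.40 in RT Txnip-/-, 15.3, 16.9 and 13.5 in TN WT and 16.4, 16.9 and 16.9 in TN Txnip-/-. All 6 TN libraries exceeded all 6 RT libraries. Erg rose 1.73-fold in WT (adjusted p = 0.000257) and 1.93-fold in Txnip-/- (adjusted p = 4.19e-05), and Fli1, which blood cells also express, 1.71-fold (adjusted p = 0.00191) and 1.78-fold (adjusted p = 0.000903). Of the SoxF factors, Sox18 was called in Txnip-/- (1.52-fold; adjusted p = 0.00384) and had a log2 difference of 0.31 in WT (adjusted p = 0.0658), where it was called without RT WT replicate 3 (0.41; adjusted p = 0.0381) or TN WT replicate 1 (0.39; adjusted p = 0.0454). Sox17, an arterial factor, was between 6.43 and 9.41 TPM throughout, with log2 differences of -0.06 and -0.07.

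In the Notch group the ligand gene Dll4 was called in both genotypes and the target gene Hey1 in neither. Dll4 was at 6.96, 9.42 and 15.3 TPM in RT WT, 5.07, 5.08 and 6.72 in RT Txnip-/-, 18.5, 19.7 and 19.6 in TN WT and 17.7, 12.9 and 15.9 in TN Txnip-/-. It was higher at TN without overlap in both genotypes, 1.82-fold in WT (log2 difference 0.87 ± 0.21; adjusted p = 0.00544) and 2.75-fold in Txnip-/- (1.31 ± 0.21; adjusted p = 0.000394). Gm14207, whose exons overlap Dll4 on the opposite strand, was at 2.93 ± 1.45 TPM in WT and 1.93 ± 0.0866 in Txnip-/- at RT, and at 6.07 ± 0.569 and 4.98 ± 0.414 at TN (SD, n = 3), moving with Dll4; since counting by strand is not stated, reads of the pair cannot be told apart. Hey1, a transcriptional target of Notch, was at 2.52, 3.19 and 6.07 TPM in RT WT and between 2.71 and 3.83 TPM in the other 9 libraries. Its log2 differences were -0.13 (adjusted p = 0.629) and 0.07 (adjusted p = 0.785), and they changed sign without RT WT replicate 3 in WT (0.17) and with equal library medians in Txnip-/- (-0.12). Notch1, the receptor, was called in Txnip-/- (1.30-fold; adjusted p = 0.0329), a call lost without the filter, under both other scalings and without RT Txnip-/- replicate 2 (adjusted p = 0.143), RT Txnip-/- replicate 3 (0.0704) or TN Txnip-/- replicate 3 (0.128). In WT its log2 difference was 0.03 (adjusted p = 0.865), or -0.02 and -0.16 under those scalings. On the strand opposite Notch1, 0610009E02Rik was at 12 ± 0.614 TPM in WT and 10.4 ± 1.87 in Txnip-/- at RT, and at 11.3 ± 1.42 and 13.9 ± 1.75 at TN (SD, n = 3), near the level of Notch1, and it moved with Notch1 in Txnip-/-; reads of this pair cannot be told apart either. RT WT replicate 3 was the highest of its group for Dll4, Hey1 and Angpt2, for 16 of the 35 members in all, and the lowest for 11.

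Of the 5 genes of secreted, matrix and other proteins, 4 were called higher at TN in WT and 5 in Txnip-/-, beside 31.4% and 30.9% of all genes, or 1 (Egfl7) and 4 beside 15.4% and 18.4% with equal library medians. Egfl7, a matrix protein that endothelial cells secrete, was at 70.2, 59.1 and 67.4 TPM in RT WT, 55.8, 47.5 and 56.2 in RT Txnip-/-, 96.7, 105 and 100.3 in TN WT and 114, 118 and 108 in TN Txnip-/-. The 4 groups did not overlap at all, in the order RT Txnip-/-, RT WT, TN WT, TN Txnip-/-. Egfl7 rose 1.53-fold in WT (log2 difference 0.61 ± 0.08; adjusted p = 0.000228) and 2.13-fold in Txnip-/- (1.08 ± 0.08; adjusted p = 7.78e-06). Its exons overlap those of Agpat2 on the opposite strand, and whether reads were counted by strand is not given in the sources used here. Agpat2 was at 971 ± 109.0 TPM in WT and 864 ± 207 in Txnip-/- at RT, and at 418 ± 138 and 234 ± 107 at TN (SD, n = 3), so it was lower where Egfl7 was higher between temperatures, while at RT both had the lower mean in Txnip-/-; its part in the Egfl7 values was not tested.

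The Egfl7 gene also holds the hairpins of miR-126, an endothelial microRNA, and its mature sequence is shown because the host transcript separated all 4 groups. The miR-126a hairpin lies at chr2:26591357-26591429 on the plus strand (mm10), within the deposited Egfl7 transcript (chr2:26586636-26592682) and over an exon of at least 1 annotated Egfl7 transcript. In the mature strand from RefSeq, bases 2 to 8, the seed, are in capitals.
miR-126a-3p: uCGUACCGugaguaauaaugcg
The poly(A) libraries measured the host transcript, and the mature microRNA was not measured. An entry for the Mir126a hairpin was at 6.69 ± 1.94 TPM in WT and 6.52 ± 3.53 in Txnip-/- at RT. At TN it was at 14.5 ± 5.22 and 15.8 ± 4.41 (SD, n = 3). It lies on the strand of Egfl7, so reads of the 2 cannot be told apart. Exons of Gm20532 are annotated over Egfl7 on that strand too.

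Plvap, which forms the diaphragms of fenestrated capillaries, rose 1.38-fold in WT (adjusted p = 0.00615) and 1.55-fold in Txnip-/- (adjusted p = 0.000791). Mmrn2, an endothelial matrix protein, rose 1.35- and 1.58-fold, and Nos3, the endothelial nitric oxide synthase gene, 1.31- and 1.46-fold. With equal library medians, Plvap and Mmrn2 were not called in WT and Nos3 in neither genotype, and Nos3 in WT was not called with upper-quartile scaling either. Atg9b, opposite Nos3, averaged 1.73 to 2.27 TPM over the groups. Vwf, the clotting factor of endothelium and platelets, rose 1.61-fold in Txnip-/- (adjusted p = 0.00245), and its log2 difference was 0.24 in WT (adjusted p = 0.135), or 0.35 (adjusted p = 0.0434) without TN WT replicate 3. The summed TPM of 5 platelet markers was 7.28 to 8.97 in WT and 7.81 to 9.47 in Txnip-/- at RT, and 14.0 to 17.4 and 19.6 to 26.3 at TN. Of these markers 2 passed the filter, with 1 called higher at TN in WT and 2 in Txnip-/-, beside 31.4% and 30.9% of all genes. Their part in the Vwf values was not tested.

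**Figure D3:**
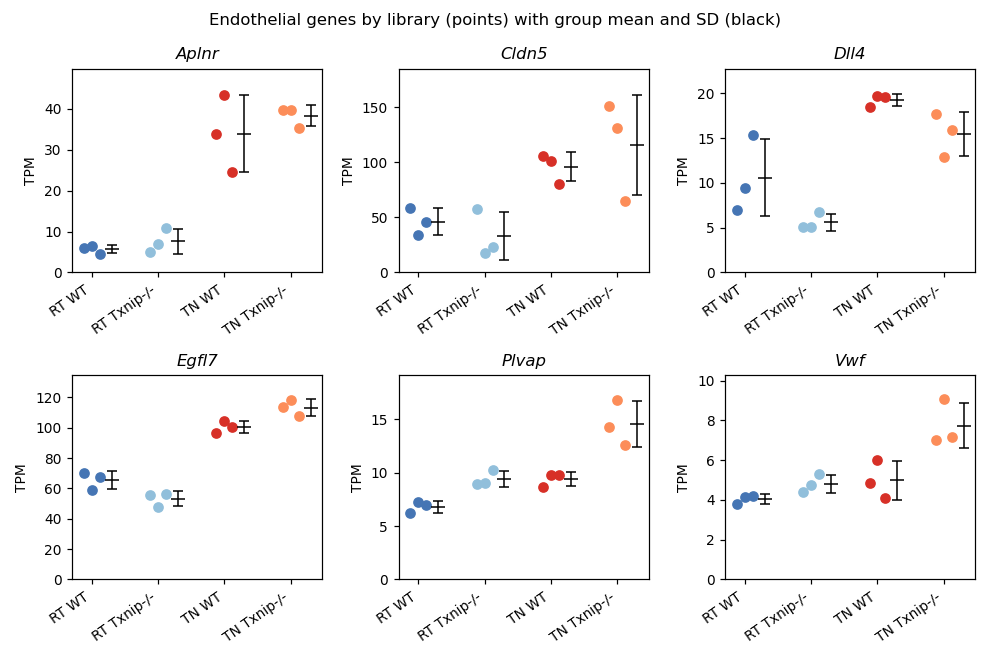
TPM of 6 endothelial genes in each of the 12 libraries (points, coloured by group) with the mean and SD of each group (black). All 6 were higher at TN in Txnip-/-, and Plvap and Vwf were also higher in TN Txnip-/- than in TN WT.

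The ligands were set beside the endothelial genes over the 4 groups, without a test. Vegfa and Vegfb made up 96.2% ± 0.772 of the summed ligand TPM in WT and 96.6% ± 1.32 in Txnip-/- at RT, and 94.3% ± 0.441 and 93.1% ± 0.435 at TN (SD, n = 3). The mean log2(TPM + 1) over the 29 endothelial genes was 4.03 ± 0.07 in WT and 3.94 ± 0.11 in Txnip-/- at RT, and 4.46 ± 0.09 and 4.57 ± 0.07 at TN. It was 0.43 higher at TN in WT and 0.63 higher in Txnip-/-, or 0.25 and 0.44 with equal library medians. Summed ligand TPM per unit of summed endothelial TPM was 0.601 ± 0.0324 in WT and 0.669 ± 0.0450 in Txnip-/- at RT, and 0.591 ± 0.0652 and 0.509 ± 0.0619 at TN. The ratio was lowest where its denominator was highest, and its TN Txnip-/- range (0.450 to 0.574) overlapped that of TN WT (0.516 to 0.631).

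Vegfa, the main vascular growth factor, was at 198, 216 and 204 TPM in RT WT, 242, 199.9 and 197 in RT Txnip-/-, 280.1, 280.1 and 293 in TN WT and 267, 217 and 276 in TN Txnip-/-. In WT the TN libraries were all above the RT ones, and in Txnip-/- the groups overlapped. It was 1.38-fold higher at TN in WT (log2 difference 0.47 ± 0.10; adjusted p = 0.00254), a call lost with equal library medians (0.28; adjusted p = 0.0326), and 1.19-fold higher in Txnip-/- (0.25 ± 0.10; adjusted p = 0.0521), where it was called without RT Txnip-/- replicate 1 (adjusted p = 0.0113) or TN Txnip-/- replicate 2 (adjusted p = 0.00734). Vegfb, which binds Flt1 and is abundant in oxidative tissue, was at 201, 192 and 191 TPM in RT WT, 196, 193 and 199.7 in RT Txnip-/-, 283, 233 and 252 in TN WT and 248, 251 and 235 in TN Txnip-/-. Its log2 difference was 0.39 in WT (adjusted p = 0.00087), lost with equal library medians and without TN WT replicate 1 (0.31), and 0.315 in Txnip-/- (adjusted p = 0.00226), just short of the threshold of 0.322, which it passed without RT Txnip-/- replicate 3 (0.33) or TN Txnip-/- replicate 3 (0.34). The ratio of Vegfa to Vegfb stayed between 0.866 and 1.24 over the 12 libraries.

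Of the other 4 ligands, which were scarcer, Pgf, Vegfc and Angpt1 were called higher at TN in both genotypes and Angpt2 in Txnip-/-. Pgf (placental growth factor), a ligand of Flt1, was at 0.710, 0.652 and 0.824 TPM in RT WT, 0.578, 0.336 and 0.633 in RT Txnip-/-, 1.90, 3.24 and 3.95 in TN WT and 4.58, 4.46 and 5.59 in TN Txnip-/-. The TN libraries were all above the RT libraries, and those of TN Txnip-/- all above those of TN WT. The ratio of mean TPM was 4.16 in WT (log2 difference 1.19 ± 0.17; adjusted p = 0.000337) and 9.45 in Txnip-/- (1.95 ± 0.17; adjusted p = 1.3e-05), a larger ratio than on the log2(TPM + 1) scale because the RT values are under 1 TPM. Pgf averaged under 1 TPM in both RT groups and passed the filter only through the TN groups, so its calls follow in part from the filter; the same holds for Angpt2 in Txnip-/-. Pgf per unit of Vegfa was 0.00355 ± 0.000514 in WT and 0.00243 ± 0.000766 in Txnip-/- at RT, and 0.0106 ± 0.00346 and 0.0193 ± 0.00189 at TN.

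Vegfc, the lymphatic growth factor, was at 2.26, 1.70 and 0.830 TPM in RT WT, 1.86, 1.44 and 1.55 in RT Txnip-/-, 3.35, 3.40 and 2.84 in TN WT and 3.78, 3.91 and 3.42 in TN Txnip-/-. It rose 2.0-fold in WT (adjusted p = 0.0047) and 2.29-fold in Txnip-/- (adjusted p = 0.00169). Angpt1, the activating ligand of Tek, was at 14.7, 14.5 and 8.39 TPM in RT WT, 19.6, 8.39 and 7.71 in RT Txnip-/-, 30.0, 22.9 and 21.8 in TN WT and 29.6, 26.4 and 24.2 in TN Txnip-/-. Both ligands were higher at TN without overlap. The Angpt1 rise was 1.98-fold in WT (adjusted p = 0.0178) and 2.24-fold in Txnip-/- (adjusted p = 0.00495), and the WT call was lost without RT WT replicate 3 (adjusted p = 0.0752) or TN WT replicate 1 (adjusted p = 0.0631). Angpt2, the context-dependent antagonist of Tek, was at 0.427, 0.795 and 1.81 TPM in RT WT, 0.641, 0.550 and 0.831 in RT Txnip-/-, 1.45, 1.70 and 1.5 in TN WT and 1.85, 1.21 and 1.69 in TN Txnip-/-. It was called in Txnip-/- (2.35-fold; adjusted p = 0.0236), but not with equal library medians (adjusted p = 0.107) or without replicate 1 or 2 of RT Txnip-/- or replicate 1 or 3 of TN Txnip-/- (adjusted p up to 0.0818). It was not called in WT (log2 difference 0.40; adjusted p = 0.122), where it was called once RT WT replicate 3 was left out (0.67; adjusted p = 0.00577).

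**Figure D4:**
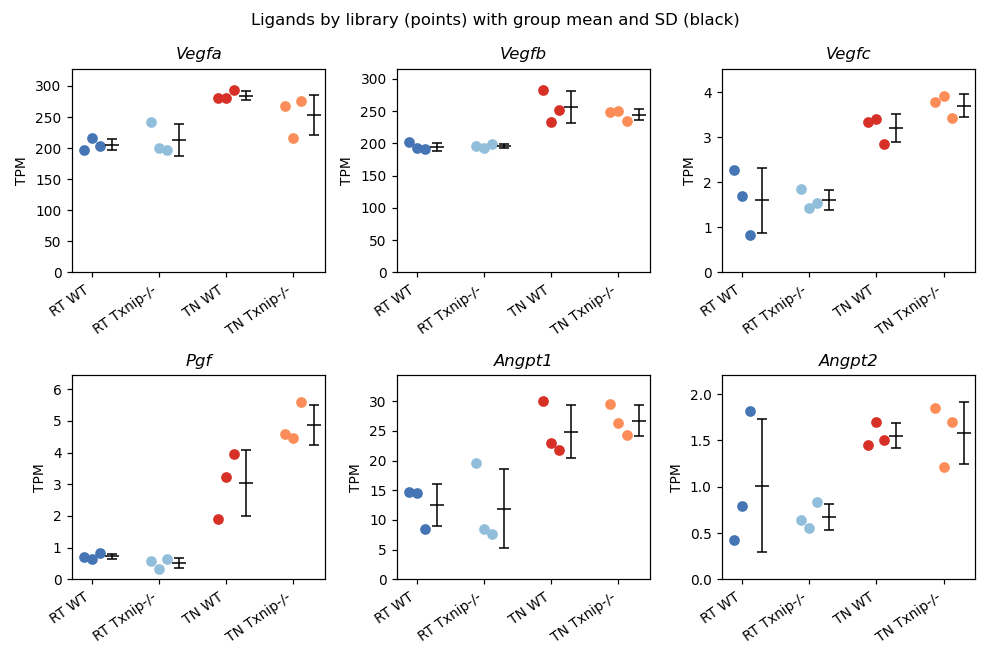
TPM of the 6 ligand genes in each of the 12 libraries (points, coloured by group) with the mean and SD of each group (black). Vegfa and Vegfb lie near 200 TPM or above in every library, Pgf is under 1 TPM in all 6 RT libraries, and Angpt2 of RT WT spreads from 0.427 to 1.81 TPM.

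The comparison of Txnip-/- with WT asked what loss of Txnip changes in the vascular genes at each temperature. At RT 0 of the 32 members tested were called, beside 1.49% of all 11980 genes. That share rests on single libraries. With all 6 libraries 91 genes were called higher and 87 lower, and without RT WT replicate 2 the counts were 0 and 2. An unadjusted p under 0.05 was reached by 8 members, which is 25.0% of them beside 16% of all genes. Of the 32 estimates 22 were below 0, which is 68.8% beside 40.8% of all genes, with a median of -0.07 beside 0.03 over all genes. Without RT Txnip-/- replicate 2, the lowest of its group for 26 of the 35 members, the median was 0.01, so this direction rests on 1 library. With all libraries, 6 members were lower and 3 higher in Txnip-/- without overlap between the groups, beside 7.58% and 15.1% of all genes. The 6 that were lower were Kdr (log2 difference -0.34; adjusted p = 0.128), Tie1 (-0.32; 0.224), Icam2 (-0.22; 0.188), Dll4 (-0.75; 0.204), Egfl7 (-0.30; 0.185) and Nos3 (-0.19; 0.275), with adjusted p by limma as the second value. The 3 that were higher were Plvap (0.42; adjusted p = 0.0819), Ptprb (0.28; 0.204) and Vwf (0.20; 0.356). For Dll4, the mean was 10.6 ± 4.29 TPM in WT and 5.62 ± 0.953 in Txnip-/-, and without RT WT replicate 3 the log2 difference was -0.47 (adjusted p = 0.237). At RT the summed TPM of 5 skeletal muscle markers was 2.30 to 2.83 in WT and 17.8 to 42.4 in Txnip-/-; its part in the RT values was not tested.

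At TN, 2 of the 34 members were called higher in Txnip-/- and 0 lower, beside 6.49% of all 12891 genes called higher and 2.17% lower. These shares of all genes were 2.79% and 0.754% without TN Txnip-/- replicate 1, and 2.8% and 0.8% without TN Txnip-/- replicate 2. Plvap was at 8.68, 9.76 and 9.77 TPM in WT and 14.3, 16.9 and 12.6 in Txnip-/-, a 1.55-fold difference (log2 difference 0.58 ± 0.11; adjusted p = 0.0183). Vwf was at 4.83, 6.03 and 4.09 TPM in WT and 7.00, 9.06 and 7.16 in Txnip-/-, also 1.55-fold (0.55 ± 0.14; adjusted p = 0.0476). Neither gene overlapped between the genotypes. The Plvap call was lost without TN WT replicate 1 (adjusted p = 0.0527) or TN Txnip-/- replicate 1 (adjusted p = 0.0626). The Vwf call was lost without the filter (adjusted p = 0.112), under upper-quartile scaling (0.0507), with equal library medians (0.0504) and without any 1 of 5 of the 6 libraries (up to 0.147). Per unit of Cdh5, Plvap was 0.0852 ± 0.00841 and 0.125 ± 0.0139 in WT and Txnip-/- at RT and 0.0798 ± 0.0123 and 0.120 ± 0.00756 at TN, with the higher ratio in Txnip-/- at both; the interaction was not called for Plvap itself (0.16; 95% confidence interval -0.16 to 0.48).

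Of the other 32 members none was called at TN. In all, 8 members were above and 4 below WT without overlap, beside 17.7% and 13.4% of all genes. Pgf was 1.61-fold higher in Txnip-/- (log2 difference 0.57 ± 0.19; adjusted p = 0.103), and with all 12 libraries in 1 fit its adjusted p was 0.0482. Cldn5, at 0.19 ± 0.28, was called without TN Txnip-/- replicate 3 (0.56; adjusted p = 0.0474). Ecscr (0.25; adjusted p = 0.0869), Emcn (0.20; adjusted p = 0.112) and Egfl7 (0.17; adjusted p = 0.153) were above WT without overlap, as were Sox17 (0.17; adjusted p = 0.236) and Vegfc (0.17; adjusted p = 0.336). The 4 below WT without overlap were Dll4 (-0.31; adjusted p = 0.121), Vegfa (-0.17; adjusted p = 0.316), Flt1 (-0.13; adjusted p = 0.298) and Flt4 (-0.09; adjusted p = 0.551). Cdh5 and Kdr, which had log2 differences of 0.03 and 0.02, were at -0.01 and -0.02 with equal library medians. The 95% confidence interval was -0.40 to 0.05 for Vegfa and -0.25 to 0.13 for Vegfb, at -0.06. At TN 8 of 8 macrophage markers and 5 of 6 fibroblast markers were called higher in Txnip-/-, and 0 of the 3 platelet markers tested, beside 6.49% of all genes.

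**Figure D5:**
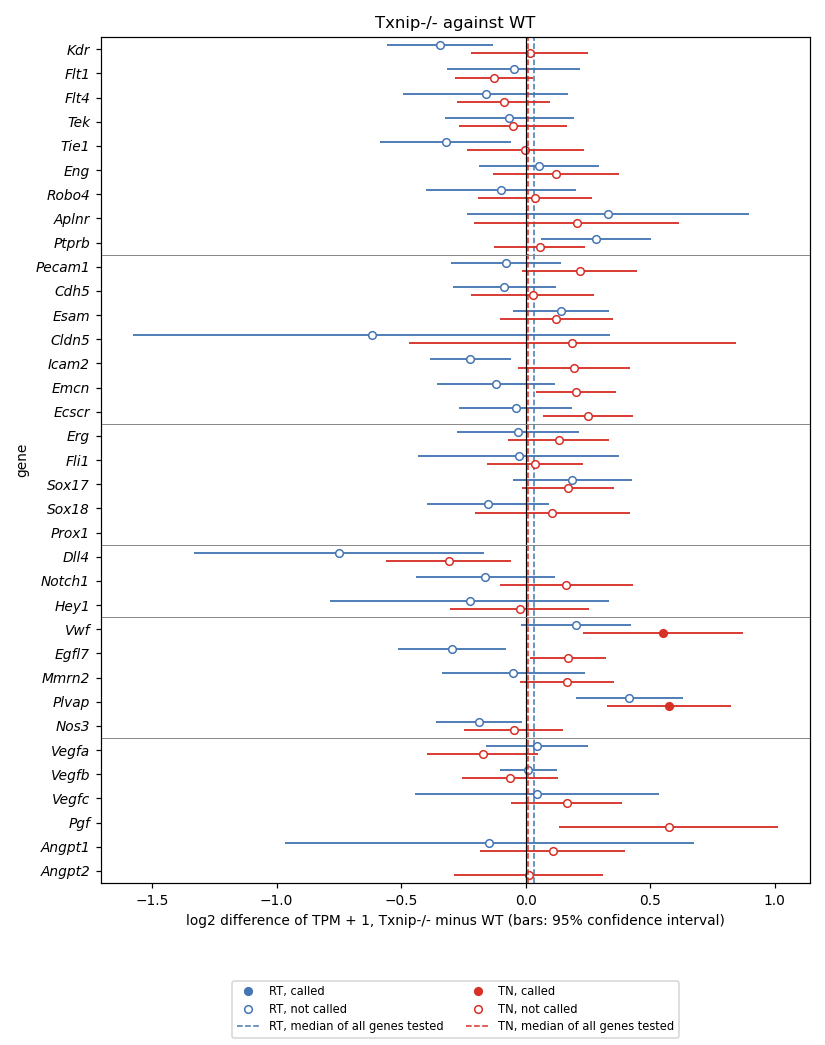
Difference between Txnip-/- and WT for each gene at RT (blue) and TN (red), on the log2(TPM + 1) scale with 95% confidence intervals; filled points were called and dashed lines are the medians of all genes tested. Only Plvap and Vwf at TN are filled, and Egfl7 lies left of 0 at RT (-0.30) and right of 0 at TN (0.17).

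Other genes tied to the vessel wall and its signals were read from lists that hold no member. Their counts at TN against RT stand beside 31.4% of all genes called higher and 6.39% lower in WT and 30.9% and 8.27% in Txnip-/-. With equal library medians these shares were 15.4% and 14.7% in WT and 18.4% and 19.5% in Txnip-/-. Of 10 further Notch pathway genes tested, 4 were called higher at TN in WT and 6 in Txnip-/-, and 0 lower. Nrarp, a feedback inhibitor induced by Notch, rose from 6.02 ± 0.601 to 13.1 ± 3.31 TPM in WT and from 5.06 ± 0.215 to 14.1 ± 1.1 in Txnip-/- (SD, n = 3), and Rbpj, the DNA-binding partner of Notch, 2.17- and 2.10-fold. Of 33 further endothelial genes tested, 18 were called higher and 2 lower in WT, and 21 higher and 2 lower in Txnip-/-; with equal library medians the counts were 9 and 4, and 14 and 3. Cd34, carried by endothelial and stromal progenitor cells, rose 2.79-fold and 3.61-fold, and Lyl1, a partner of endothelial and blood transcription factors, 2.48- and 3.32-fold. The genes that fell were Klf4 and Klf2 in WT, both induced by shear stress and by many other stimuli, at 0.234 and 0.450 of their RT level, and Klf4 (0.558) and Cyyr1 (0.789) in Txnip-/-. Klf4 in Txnip-/- was at 25.6 ± 11.3 TPM at RT and 14.3 ± 4.66 at TN (SD, n = 3; adjusted p = 0.0468), and these groups overlapped. Meox2, a regulator of lipid uptake by capillaries, rose 2.7- and 2.61-fold and the fatty acid transporter gene Slc27a3 1.83- and 1.92-fold. Its relative Slc27a4 fell to 0.715 and 0.733 of its RT level, Lpl, a lipase that acts at the capillary wall, to 0.751 in WT and Rgcc, a cell cycle regulator of endothelial cells, to 0.702 in Txnip-/-. Of the 11 capillary lipid genes, 4 were called higher and 3 lower in each genotype. In RT WT the summed TPM of these 11 averaged 19498, against 693 for the 29 endothelial members. Which cells made this RNA was not tested.

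Beside the same shares of all genes, of 12 mural cell genes, markers of pericytes and smooth muscle, 3 were called higher and 1 lower at TN in WT and 3 higher and 0 lower in Txnip-/-, where equal library medians gave 3 and 3. Pdgfrb, the pericyte receptor, rose 1.76- and 1.81-fold, Notch3 1.53-fold in WT and Mcam 1.65-fold in Txnip-/-, and Cspg4 fell to 0.753 of its RT level in WT. Pdgfb, the endothelial signal that recruits pericytes, fell to 0.714 in WT. Of 15 further angiogenic genes tested, 9 were called higher and 1 lower in WT and 10 and 0 in Txnip-/-, among them Angptl4 (2.36- and 2.77-fold), Fgf1 (2.04-fold in WT) and Igf1 (2.98-fold in Txnip-/-). Of 15 hypoxia-response genes, 4 were called higher and 2 lower in WT and 2 and 2 in Txnip-/-. With equal library medians the counts were 1 and 3, and 2 and 7, beside 14.7% and 19.5% of all genes called lower. Adm, a vasodilator peptide, rose 2.89- and 3.51-fold, Ndrg1 2.0-fold in Txnip-/- and Slc2a1 1.47-fold in WT (adjusted p = 0.0533 with equal library medians), whereas Egln3 fell to 0.393 and 0.472, P4ha1 to 0.283 in WT, where its 3 RT libraries averaged 35.6 ± 24.4 TPM (SD) and the groups overlapped, and Egln1 to 0.787 in Txnip-/-. Of 3 further lymphatic genes tested, Pdpn, also a fibroblast marker, rose 2.51-fold in both genotypes from RT means under 1 TPM, so that it passed the filter only through the TN groups, and Ccl21a rose 2.37-fold in Txnip-/- (adjusted p = 0.0515 with equal library medians).

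Between genotypes at RT, 1 of 12 mural and 1 of 15 hypoxia-response genes were called and 0 in the other lists, beside 1.49% of all genes. At TN 1 of 10 Notch, 1 of 12 mural, 1 of 3 lymphatic, 2 of 34 endothelial, 0 of 11 capillary lipid, 4 of 14 hypoxia-response and 5 of 16 angiogenic genes were called, beside 6.49% of all genes called higher and 2.17% lower. At RT Pdk1, a hypoxia-response gene that limits pyruvate oxidation, was 1.66-fold higher in Txnip-/- and the mural gene Cspg4 was at 0.739 of WT. The Pdk1 call was lost without RT WT replicate 2, where 0 of all genes were called higher. Cspg4 was close to the threshold (adjusted p = 0.0470 by limma). At TN Pdk1 (1.95-fold) and Ndrg1 (1.69-fold) were higher and Slc2a1 (0.538 of WT) and Egln1 (0.759) lower. Igf1 and Slit3, a Robo ligand, were both 2.24-fold higher, among 5 of 16 further angiogenic genes called. The adhesion molecule gene Vcam1 (1.72-fold), Cd34 (1.31-fold), Ccl21a (1.76-fold) and Dll1 (1.33-fold, lost under both other scalings) were higher and the mural gene Des was lower (0.752 of WT).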

How the data were processed

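The sources describe poly(A)-selected RNA of interscapular BAT, sequenced as single-end reads of 12 libraries. Per the labels and methods, the authors aligned reads to mm10 with STAR 2.7.5a, counted them on exons with HOMER 4.11.1 and deposited TPM of 25124 genes, 1 transcript each, the values used here. The deposited comparison tables, 1 per temperature, hold the authors' log2 scale normalized values of 6 libraries, used as an alternative, and transcript lengths; for 11 and 10 members these tables list another transcript than the TPM table. Their fold change, p-value and adjusted p-value columns, from the authors' DESeq2 comparison, were not used.

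The deposited TPM were taken as log2(TPM + 1) for genes with a mean of at least 1 TPM over the libraries compared, and tested in R 4.3.3 with limma 3.58.1 (empirical Bayes with a trend, Benjamini-Hochberg over all genes tested). Genotype was compared within each temperature on 6 libraries, and temperature and the interaction on all 12 with 4 group means. The interaction is the genotype difference at TN minus that at RT. The thresholds were 0.32 on the log2 scale in either direction (a fold below 0.8 or its inverse) and an adjusted p under 0.05. In simulated data, 77.5% to 94.5% of 200 genes given a log2 change of 1 were recovered. TPM do not carry counts, so counting error is unknown and the 3 libraries of a group set the precision. Alternatives were another added constant, no filter, upper-quartile scaling, equal library medians, the replicate number as a block, each library left out and, by comparison, others.

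Members, gene lists and named genes were chosen with earlier results of these data known. Every member is named; of each further list, up to 2 called genes with the largest rise and 2 with the largest fall per comparison are named, with counts only for the lists of other cells. Exon overlaps were read from GENCODE M21, in which 9 members overlap a gene on the other strand and 1, Egfl7, overlaps genes on its own strand. Figures were drawn with matplotlib 3.10.9.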

Additional observations from a re-analysis of the deposited data

Results flagged for a closer look

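The genotype estimates of Egfl7 had opposite signs at the 2 temperatures, and neither was called. All 3 RT Txnip-/- libraries were below all 3 RT WT libraries, and all 3 TN Txnip-/- libraries were above all 3 TN WT libraries. The genotype differences were -0.30 at RT (adjusted p = 0.185 by limma) and 0.17 at TN (adjusted p = 0.153), and the interaction was 0.47 ± 0.11 (SE; 95% confidence interval 0.22 to 0.72; adjusted p = 0.168), which did not pass the threshold. Egfl7 was the member with the smallest adjusted p for the interaction. Its exons overlap those of Agpat2 on the opposite strand, whose part in these values was not tested. Groups of 3 libraries were too small for a search for single outlying samples.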

How the results depend on the processing

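The calls at TN against RT depended most on the scaling. With equal library medians 11 members were called higher and 1 lower in WT, beside 15.4% and 14.7% of all genes. In Txnip-/- 20 were called higher and 1 lower, beside 18.4% and 19.5%. The mean difference of the endothelial genes was then 0.25 in WT and 0.44 in Txnip-/-. Equal medians remove the shift of the median gene by construction. For the genotype difference at TN, 1 member was called higher without the filter, with upper-quartile scaling and with equal library medians. Of all genes 2.15%, 5.71% and 5.65% were called higher in these settings. Leaving out each library in turn gave 0 to 2 members called higher in Txnip-/- at TN, and 18 to 23 members called higher at TN in WT and 23 to 27 in Txnip-/-. With a replicate block 23 and 26 members were called higher at TN in WT and Txnip-/-, 2 in the genotype comparison at TN and 0 at RT, and the block changed no other call. Deviations of same-numbered WT and Txnip-/- libraries correlated at 0.30, -0.01 and 0.22 at RT and at 0.04, 0.02 and -0.03 at TN; since not every pair was over 0.1, the numbers were not taken as pairs. Single members, none of them called in that comparison, changed sign as follows, and the cause was not tested. Under upper-quartile scaling, for the genotype difference at RT, Vegfb (-0.0049) changed sign. Under upper-quartile scaling, for the genotype difference at TN, Kdr (-0.025), Robo4 (-0.0024), Cdh5 (-0.012), Fli1 (-0.0015) and Angpt2 (-0.012) changed sign. Under upper-quartile scaling, for the temperature difference in WT, Notch1 (-0.020) changed sign. Under upper-quartile scaling, for the interaction, Tek (-0.0098) changed sign. Under equal library medians, for the genotype difference at RT, Vegfb (-0.018) changed sign. Under equal library medians, for the genotype difference at TN, Kdr (-0.021), Cdh5 (-0.0079) and Angpt2 (-0.024) changed sign. Under equal library medians, for the temperature difference in WT, Kdr (-0.018), Flt1 (-0.11), Robo4 (-0.038), Emcn (-0.12) and Notch1 (-0.16) changed sign. Under equal library medians, for the temperature difference in Txnip-/-, Ptprb (-0.088) and Hey1 (-0.12) changed sign. Under the authors' log2 values, for the genotype difference at RT, Vegfa (-0.0011), Vegfb (-0.031) and Vegfc (-0.0021) changed sign. Under the authors' log2 values, for the genotype difference at TN, Kdr (-0.0023) changed sign. Without 1 library the sign changed for some members, given with the lowest and highest log2 difference. For the genotype difference at RT these were Tek (-0.18 to 0.011), Eng (-0.020 to 0.16), Fli1 (-0.15 to 0.14), Flt1 (-0.14 to 0.042), Robo4 (-0.20 to 0.047), Ecscr (-0.12 to 0.025), Hey1 (-0.43 to 0.069), Mmrn2 (-0.15 to 0.040), Vegfb (-0.0045 to 0.035), Vegfc (-0.19 to 0.23), Vegfa (-0.050 to 0.098), Pecam1 (-0.13 to 0.017), Cdh5 (-0.14 to 0.0073), Erg (-0.088 to 0.072) and Angpt1 (-0.54 to 0.080). For the genotype difference at TN these were Robo4 (-0.025 to 0.13), Fli1 (-0.041 to 0.094), Vegfb (-0.13 to 0.012), Angpt2 (-0.063 to 0.12), Tek (-0.12 to 0.027), Tie1 (-0.083 to 0.073), Kdr (-0.072 to 0.075), Aplnr (-0.0049 to 0.40), Ptprb (-0.0067 to 0.098), Cdh5 (-0.066 to 0.12), Hey1 (-0.12 to 0.072), Cldn5 (-0.048 to 0.56), Sox18 (-0.035 to 0.22), Nos3 (-0.12 to 0.013) and Eng (-0.0022 to 0.19). For the temperature difference in WT these were Flt1 (-0.0043 to 0.16), Emcn (-0.0064 to 0.14), Hey1 (-0.34 to 0.17) and Notch1 (-0.066 to 0.10). For the temperature difference in Txnip-/- these were Sox17 (-0.16 to 0.0092), Flt1 (-0.075 to 0.086) and Hey1 (-0.021 to 0.17). For the interaction these were Flt1 (-0.17 to 0.011), Tek (-0.062 to 0.13), Esam (-0.099 to 0.041), Sox17 (-0.099 to 0.067), Vegfc (-0.066 to 0.35), Fli1 (-0.10 to 0.18), Flt4 (-0.038 to 0.16), Eng (-0.056 to 0.14), Robo4 (-0.011 to 0.24), Hey1 (-0.094 to 0.41), Angpt2 (-0.049 to 0.44), Aplnr (-0.36 to 0.13) and Vegfb (-0.14 to 0.0018). The sign held in every setting for 17 of 32 members (genotype at RT), 19 of 34 (genotype at TN), 28 (temperature in WT), 30 (temperature in Txnip-/-) and 21 (interaction). With 3 libraries a group and no counts in the files, the spread between libraries sets what could be called.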

Other observations

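Markers of further cell types were measured beside the vascular genes and are given as values. Of 4 Schwann cell markers, 3 were called higher at TN in Txnip-/- and 0 in WT, beside 30.9% and 31.4% of all genes. The interaction was called for 0 of the 4. Their sum was 6.67 to 38.4 TPM in RT WT, so the libraries of that group differed as much as the groups. Of 5 lymphocyte markers, 2 passed the filter in the temperature comparisons. Called higher at TN were 1 in WT and 2 in Txnip-/-, beside 31.4% and 30.9% of all genes. The sum of 3 erythroid markers was 252 to 792 TPM in TN Txnip-/- and 430 to 462 in RT WT, with 0 called in any of the 4 comparisons of groups (unadjusted p under 0.05 for 2 in the genotype comparison at RT and 0 in the others). Of 3 mesothelial markers 1 was tested, and it was not called. The sum of 5 skeletal muscle markers was 2.30 to 2.83 TPM in WT and 17.8 to 42.4 in Txnip-/- at RT, and 2.13 to 14.2 and 2.74 to 14.4 at TN; calls of these genes are not counted, since they passed the filter mostly through RT Txnip-/-.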
